A study of Mus musculus with 4 samples.

Results

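The genes described here encode the enzymes and carriers that oxidise fatty acids in mitochondria and peroxisomes. They were chosen by name as a list of 32 genes, and all 32 were found among the 22298 genes of the count table once Ensembl identifiers had been matched to GENCODE symbols. Of the 32 members, 22 were assigned to the mitochondrial route and 8 to the peroxisomal route, and 2 are acyl-CoA thioesterases kept apart from both. Each member was placed in a single route by name. A second location of its protein, as may hold for Eci2 and Crat, was not considered. RNA from brown adipose tissue (BAT) of mouse fetuses labelled C57BL/6 was sequenced in bulk at E18.5, shortly before birth. The control group was carried by dams on tap water and the fructose group by dams given 20% (w/v) fructose water while pregnant, with 2 libraries in each group and no genetic change in either. The comparison asks which genes differ in fetal BAT after the mother has drunk fructose during pregnancy. Library totals were 19224529 and 18542897 counts for control 1 and control 2, and 22461298 and 23645147 counts for fructose 1 and fructose 2.

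Fatty acids enter oxidation as acyl-CoA esters made by acyl-CoA synthetases. Long chains cross the inner mitochondrial membrane as carnitine esters, are shortened in the matrix by cycles of dehydrogenation, hydration, dehydrogenation and thiolysis, and pass electrons through the electron transfer flavoprotein to the respiratory chain. Peroxisomes carry out a related cycle on very long, branched and dicarboxylic chains, and brown adipocytes use fatty acids as the main fuel for heat production around birth.

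All 4 libraries were labelled male. The summed counts of 4 Y-linked genes (Ddx3y, Eif2s3y, Kdm5d and Uty) were 422 in control 1, 390 in control 2, and 0 in both fructose libraries. A count of 0 allows up to 3 counts per gene, for counting error only. Both fructose libraries therefore went against the label while both control libraries did not, and no comparison without the fructose libraries was possible, so maternal fructose and this difference cannot be told apart in any result given here. Nothing in the labels states whether the libraries of a group came from separate fetuses or litters, so p-values measure only the spread between these samples, which may be technical. The tissue label was checked against 12 brown adipocyte markers, all of which were detected in all libraries. Ucp1, the uncoupling protein of brown fat, stood at 9705 and 12420 CPM (counts scaled to library size after TMM) in the controls and at 11000 and 9606 CPM in the fructose libraries. Its ranges overlapped, and the log2 fold change was -0.10 ± 0.13 (SE; adjusted p = 0.587).

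Maternal fructose was accompanied by lower transcript levels of 7 mitochondrial members and higher levels of 4 members, 3 of them peroxisomal. Carnitine palmitoyltransferase Cpt1b, the acyl-CoA dehydrogenases Acadvl and Acads, the β-oxidation enzymes Echs1, Acaa2 and Eci1, and the flavoprotein subunit Etfb fell. The acyl-CoA synthetase Acsl5, the peroxisomal carnitine octanoyltransferase Crot and the peroxisomal transporters Abcd2 and Abcd3 rose. Fold changes were modest, from -0.47 for Etfb to 0.81 for Abcd2 on the log2 scale. All 32 members passed the filter on low counts and were tested with edgeR among 12888 genes, and a gene was called at a Benjamini-Hochberg adjusted p under 0.05 over all of them. Members called higher were 4 of 32 (12.5%), against 15.5% of all tested genes, and members called lower were 7 of 32 (21.9%), against 10.7% of all tested genes. At an unadjusted p under 0.05 with a fold change above 1.3, 4 members were higher (12.5%, against 17.6% of all tested genes) and 2 were lower (6.25%, against 6.18%). The 2 lower by that rule were Acads and Etfb. The shares called higher by both rules, and the share called lower by the latter rule, were thus near or under the share over all genes.

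Both fructose libraries lay below both control libraries in 21 of 32 members (65.6%), against 31.6% of all tested genes. They lay above both control libraries in 5 members (15.6%), against 33.4% of all tested genes. The median log2 fold change of the 32 members was -0.14, with 24 below 0 and 8 above 0, and that of all tested genes was 0.00. Counts of calls depended on single libraries, among the members and over all tested genes, and their ranges are given in the last paragraph. In fits with a library left out, the lone library of a group was assumed to vary like the others. Scaling by library size only, in place of TMM, gave 2242 genes higher and 859 lower over the whole table. With TMM these were 2001 higher and 1379 lower. Library size scaling gave 5 members higher and 6 lower, and a median log2 fold change of 0.06 over all tested genes. In bulk tissue, fewer cells of a type and less RNA per cell cannot be told apart.

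**Figure D1:**
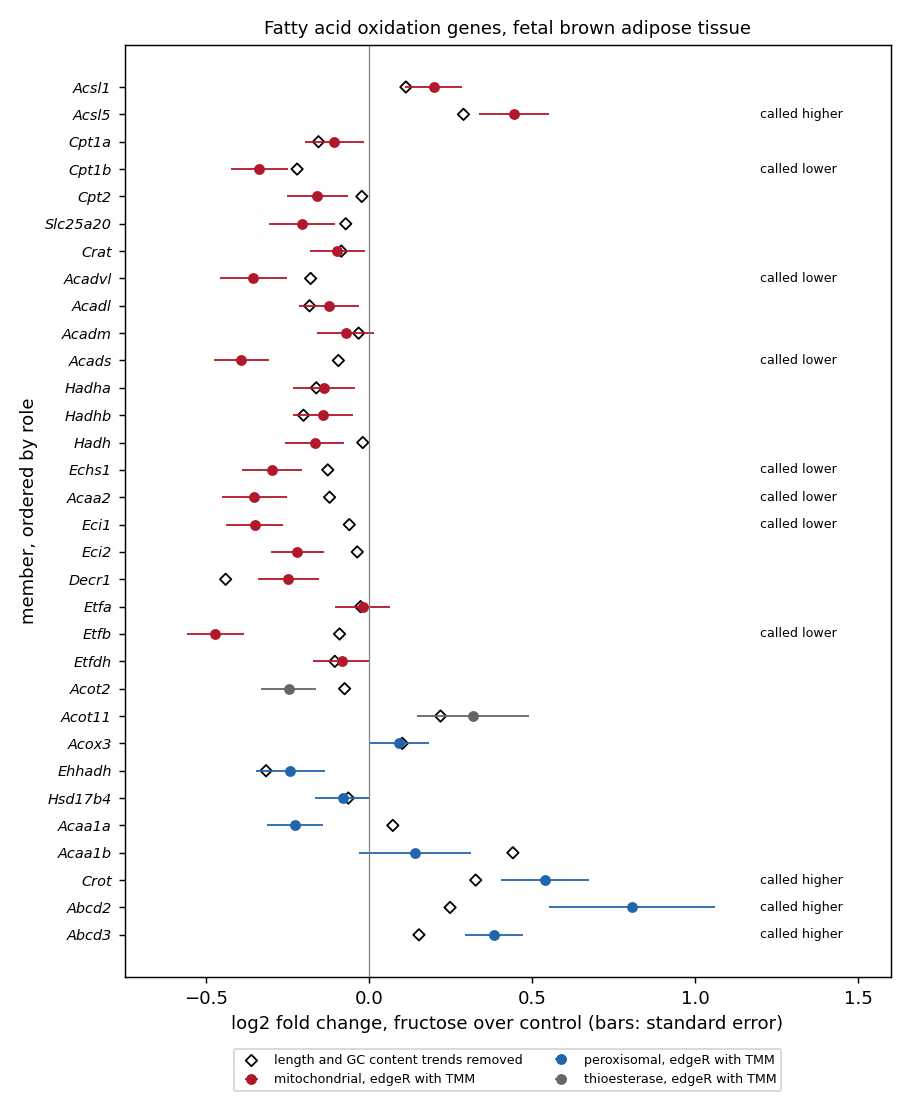
Log2 fold change of each of the 32 members, fructose over control, with bars for the standard error (2 libraries per group) and open diamonds for the value after transcript length and GC content trends were removed. The 7 members called lower all belong to the mitochondrial route, the 4 called higher are Acsl5, Crot, Abcd2 and Abcd3, and all 11 diamonds of called members lie nearer to 0 than their filled points.

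Fold changes followed transcript length and GC content across the whole table. Over 12884 genes with both values, the Spearman correlation of log2 fold change was 0.516 with transcript length and -0.531 with GC content, a description across genes, which are not independent replicates. Over the 32 members the same correlations were 0.585 and -0.489. The longest transcript was 2895 bases or shorter in each of the 7 members called lower and 2996 bases or longer in each of the 4 called higher. With both trends removed from each library, 0 of the 11 called members kept an adjusted edgeR p under 0.05. With only the length trend removed 3 of the 11 were called (Cpt1b, Crot and Abcd3), where 1112 of 12888 tested genes were called higher and 971 lower. With only the GC trend removed 2 of the 11 were (Echs1 and Etfb), where 943 tested genes were called higher and 946 lower. Acadl, Hadhb, Decr1 and Ehhadh were also called lower with the GC trend removed, so 6 of the 32 members were lower and 0 higher in that fit. After removal of both, the adjusted p of the 11 ranged from 0.145 to 0.758, each fold change kept its sign, and all 11 were smaller in size. In that fit 3.46% of all tested genes were called higher and 3.42% lower, and among the members none was called higher and 1, the dienoyl-CoA reductase Decr1, was called lower. DESeq2 without the trends removed called all 11 members as edgeR did. Whether the length and GC content trends arose in the tissue or in library preparation was not tested.

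**Figure D2:**
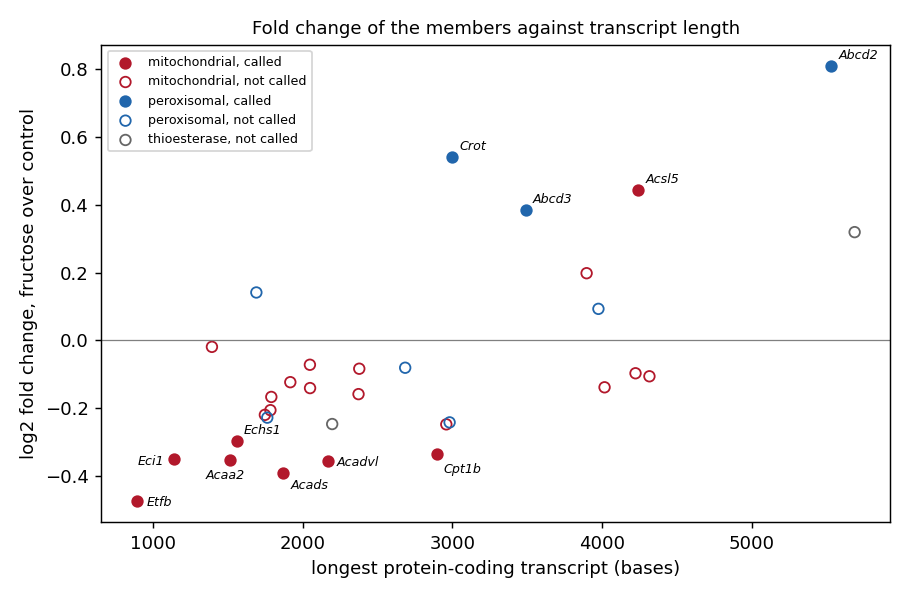
Log2 fold change of the 32 members, fructose over control, against the length in bases of the longest protein-coding transcript, with filled points for called members and open points for the others. Called members shorter than 2900 bases lie below 0 and those longer lie above 0.

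The 22 mitochondrial members moved by a median of -0.16 on the log2 scale, with 7 called lower (31.8%, against 10.7% of all tested genes) and 1 higher (4.55%, against 15.5%). In 18 of 22 both fructose libraries lay below both controls, against 31.6% of all tested genes. The 8 peroxisomal members had a median of 0.12, with 3 called higher (37.5%, against 15.5% of all tested genes) and 0 lower by edgeR (against 10.7%). Both fructose libraries lay above both controls in 3 of the 8 (37.5%, against 33.4% of all tested genes). They lay below both controls in 2 (25%, against 31.6%), so both shares were near those over all genes. The peroxisomal median was 0.00 without fructose 1 and 0.24 without fructose 2. The mitochondrial median lay between -0.22 and -0.12 with each library left out. By an unadjusted p under 0.05 with a fold change above 1.3, 3 peroxisomal members were higher (37.5%, against 17.6% of all tested genes) and 0 lower (against 6.18%). By the same rule 1 mitochondrial member was higher (4.55%, against 17.6%) and 2 were lower (9.09%, against 6.18%). With both trends removed, 1 of 22 mitochondrial members was called lower, against 3.42% of all tested genes. In that fit edgeR called 0 of the 8 peroxisomal ones, against 3.46% higher and 3.42% lower. With a replicate block added, edgeR called Ehhadh lower (-0.32, adjusted p = 0.0317) and Acaa1b higher (0.43, adjusted p = 0.0126). That blocked fit called 648 genes higher and 573 lower over the whole table. The difference between the compartments was not tested. The medians without the trends were -0.09 for the mitochondrial and 0.13 for the peroxisomal members. The median transcript length was 2048 bases in the mitochondrial and 2988 bases in the peroxisomal group, and the median GC content was 50.9% and 48.1%.

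The summed level of the mitochondrial members was 40490 CPM in control 1, 43840 in control 2, 36540 in fructose 1 and 35940 in fructose 2. Both fructose libraries lay below both controls, and the fructose mean was 86.0% of the control mean. The summed level of the peroxisomal members was 749.7, 768.7, 787.1 and 720.8 CPM in the same order. These sums overlapped between groups, with a fructose mean at 99.3% of the control mean. Peroxisomal CPM per 100 mitochondrial CPM were 1.85 and 1.75 in the controls and 2.15 and 2.005 in the fructose libraries, so this ratio was higher in both fructose libraries. Without the most abundant member of each compartment the ratio was 1.24 and 1.17 in the controls and 1.48 and 1.36 in the fructose libraries, again without overlap.

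Activation of fatty acids was represented by a pair of long-chain acyl-CoA synthetases. Acsl1, the main synthetase of adipose tissue (ENSMUSG00000018796, chr8:46471037-46536051), stood at 1681 and 1739 CPM in the controls and 2006 and 1916 CPM in the fructose libraries. The groups did not overlap, yet the log2 fold change of 0.20 ± 0.09 did not pass the test (adjusted p = 0.116). With scaling by library size only it was 0.26 and passed (adjusted p = 0.035). Acsl5, a synthetase found at mitochondria and the endoplasmic reticulum (ENSMUSG00000024981, chr19:55251938-55297720), stood at 136.0 and 140.0 CPM in the controls and 210.5 and 165.2 CPM in the fructose libraries. Fructose 1 was the highest of the 4 and the groups did not overlap. Acsl5 rose by a log2 fold change of 0.44 ± 0.11 (adjusted p = 0.0111). Without fructose 1 the value was 0.26 with an adjusted p of 0.136, and with both trends removed it was 0.29 with an adjusted p of 0.145. Acsl5 shares 404 exon bases with Zdhhc6 on the opposite strand, and the strand setting of the counting is not given in the sources used here. Zdhhc6 had 817 and 829 counts in the controls and 963 and 979 in the fructose libraries, against 2578, 2525, 4760 and 4046 counts for Acsl5.

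In the carnitine shuttle 1 of 5 members was called lower, against 10.7% of all tested genes, and all 5 had both fructose libraries below both controls, against 31.6% of all tested genes. Cpt1b encodes the form of carnitine palmitoyltransferase 1 typical of muscle and brown fat, which makes acylcarnitine at the outer mitochondrial membrane under the control of malonyl-CoA. Its level (ENSMUSG00000078937, chr15:89416405-89425863) was 1968 and 2041 CPM in the controls and 1626 and 1549 CPM in the fructose libraries. The groups were well apart, with a log2 fold change of -0.34 ± 0.09 (adjusted p = 0.0161). The value was -0.37 without fructose 1 (adjusted p = 0.057) and -0.30 without fructose 2 (0.155), so the call was lost at a fold change of similar size, and -0.22 with both trends removed (0.167). Cpt1a, the form typical of liver (ENSMUSG00000024900, chr19:3322334-3385733), stood at 39.3 and 38.2 CPM in the controls and 35.3 and 36.7 CPM in the fructose libraries. Its log2 fold change of -0.11 ± 0.09 did not pass the test (adjusted p = 0.417). Per kilobase of transcript, Cpt1b CPM exceeded Cpt1a CPM by a ratio of 74.6 and 79.7 in the controls and 68.6 and 63.0 in the fructose libraries.

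The later steps of the shuttle were not called. Slc25a20, the carnitine-acylcarnitine translocase, stood at 819.1 and 976.9 CPM in the controls and 811.1 and 746.2 CPM in the fructose libraries, with a log2 fold change of -0.21 ± 0.10 (adjusted p = 0.151). Control 2 was the highest library, and without control 1 the gene was called (log2 fold change -0.33, adjusted p = 0.00227), while without control 2 the value was -0.07 (adjusted p = 0.61). Cpt2, which returns the acyl group to CoA in the matrix, had a log2 fold change of -0.16 (adjusted p = 0.228), with -0.26 without fructose 1 and -0.06 without fructose 2. Crat, the acetyltransferase that buffers short acyl groups on carnitine, stood at 1200 and 1162 CPM in the controls and 1110 and 1098 CPM in the fructose libraries, with a log2 fold change of -0.10 (adjusted p = 0.424). Its sign turned with the GC trend removed, to 0.01.

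Cpt1b shares 2744 exon bases on the same strand with the annotated gene Gm44502, so the way reads were divided between them is uncertain. Gm44502 had 469, 503, 605 and 740 counts in control 1, control 2, fructose 1 and fructose 2, against 37287, 36812, 36767 and 37956 for Cpt1b, or 1.26% to 1.95% of the Cpt1b count. The qPCR primers used for Cpt1b in the study are shown because they bear on this overlap. They are printed in lower case throughout, 5′ to 3′, with no part marked.
Cpt1b forward primer: tgtctacctccgaagcagga
Cpt1b reverse primer: tgaacggcattgcctagacg
Both primers matched the longest Cpt1b transcript, over bases 808 to 921, and the longest Gm44502 transcript, over bases 2294 to 2407, each as a product of 114 bases. Neither matched the longest Cpt1a transcript. The 2 carnitine palmitoyltransferase 1 transcripts were 69.4% identical over 2249 aligned bases.

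All 12 members of mitochondrial β-oxidation had both fructose libraries below both controls, as did 31.6% of all tested genes, and 5 of them were called lower, against 10.7% of all tested genes. By an unadjusted p under 0.05 with a fold change above 1.3, 1 of the 12 was lower (against 6.18%), and with both trends removed 1 was called lower (against 3.42%), Decr1, which is not among the 5. The summed level of the 12 was 29910 and 32880 CPM in the controls and 26670 and 26460 CPM in the fructose libraries. Their median log2 fold change was -0.23, and -0.12 with both trends removed. The called genes fall at the dehydrogenase, hydratase, thiolase and isomerase steps.

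The dehydrogenases open each cycle and differ in the chain length they accept. Acadvl, which takes very long chains (ENSMUSG00000018574, chr11:70010183-70015411), stood at 4586 and 5340 CPM in the controls and 3913 and 3850 CPM in the fructose libraries. The controls differed from each other by more than the fructose libraries did, but the groups did not overlap, and the log2 fold change was -0.35 ± 0.10 (adjusted p = 0.024). The call was lost at a similar fold change without fructose 1 (-0.36, adjusted p = 0.0784) and without fructose 2 (-0.34, 0.123), and at a smaller one with both trends removed (-0.18, 0.35). Acads, which takes short chains (ENSMUSG00000029545, chr5:115110299-115119346), stood at 1371 and 1405 CPM in the controls and 1076 and 1041 CPM in the fructose libraries. The replicates lay close together, and Acads fell by a log2 fold change of -0.39 ± 0.09 (adjusted p = 0.00683). The value was -0.36 without fructose 2 (adjusted p = 0.0683) and -0.09 with both trends removed (0.576).

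Acadl and Acadm, the long-chain and medium-chain dehydrogenases, were not called. Acadl stood at 2710 and 2830 CPM in the controls and 2454 and 2632 CPM in the fructose libraries, with a log2 fold change of -0.12 ± 0.09 (adjusted p = 0.343) that was -0.07 without fructose 1 and -0.17 without fructose 2. Its value depended on the trends, at 0.01 (adjusted p = 0.973) with the length trend removed and -0.35 (adjusted p = 0.0268) with the GC trend removed. Acadm stood at 1571 and 1673 CPM in the controls and 1543 CPM in each fructose library, with a log2 fold change of -0.07 ± 0.09 (adjusted p = 0.579) that was -0.12 without control 1 and -0.03 without control 2, and turned to 0.04 with the length trend removed.

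Hydration of the enoyl-CoA product is catalysed by Echs1 for short chains and by the trifunctional protein for long ones. Echs1 (ENSMUSG00000025465, chr7:140105710-140116476) stood at 1661 and 1831 CPM in the controls and 1392 and 1449 CPM in the fructose libraries. It fell by a log2 fold change of -0.30 ± 0.09 (adjusted p = 0.0318), the groups not overlapping. The call was lost with scaling by library size only (-0.24, adjusted p = 0.0658), without fructose 1 (-0.27, 0.187), without fructose 2 (-0.32, 0.119) and with both trends removed (-0.13, 0.474).

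Acaa2 encodes the thiolase that releases acetyl-CoA in the matrix, and was the most abundant member in CPM and in CPM per kilobase. Its level (ENSMUSG00000036880, chr18:74779197-74806208) was 5677 and 6374 CPM in the controls and 4800 and 4645 CPM in the fructose libraries. Both controls were higher, with a log2 fold change of -0.35 ± 0.10 (adjusted p = 0.022). Leaving out fructose 1 (-0.37, adjusted p = 0.071) or fructose 2 (-0.33, 0.144) ended the call at a similar fold change, and removing both trends ended it at a smaller one (-0.12, 0.543).

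Isomerases and a reductase prepare unsaturated chains for the cycle. Eci1, a mitochondrial enoyl-CoA isomerase (ENSMUSG00000024132, chr17:24426641-24439348), stood at 1380 and 1490 CPM in the controls and 1125 and 1126 CPM in the fructose libraries. It fell by a log2 fold change of -0.35 ± 0.09 (adjusted p = 0.0129), and the fructose libraries were nearly equal. The fold change was much the same without fructose 1 (-0.35, adjusted p = 0.0718) and without fructose 2 (-0.35, 0.0855), where the call was lost, and was -0.06 with both trends removed (0.758). Eci2, another isomerase, stood at 249.6 and 268.3 CPM in the controls and 223.6 and 221.1 CPM in the fructose libraries. It had a log2 fold change of -0.22 ± 0.08 (adjusted p = 0.0662), and was called without control 1 (-0.27, adjusted p = 0.0181).

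Decr1, the 2,4-dienoyl-CoA reductase (ENSMUSG00000028223, chr4:15917240-15945507), stood at 782.9 and 911.2 CPM in the controls and 710.0 and 717.0 CPM in the fructose libraries. The groups did not overlap, with a log2 fold change of -0.25 ± 0.09 that did not pass the edgeR test (adjusted p = 0.0708). It passed with DESeq2 (-0.26, adjusted p = 0.0367), without control 1 (-0.36, adjusted p = 9.2e-04), with the GC trend removed (-0.52, adjusted p = 0.00822) and with both trends removed (-0.44, adjusted p = 0.0251). It did not pass without control 2 (-0.13, adjusted p = 0.303), without fructose 1 (-0.24, 0.236), without fructose 2 (-0.25, 0.234) or with scaling by library size only (-0.19, 0.149). Decr1 was the 1 member called by edgeR with both trends removed and no replicate block. With the block added it was also called (-0.43, adjusted p = 0.00759), as were Ehhadh (lower) and Acaa1b (higher). The longest Decr1 transcript has 2959 bases and a GC content of 44.4%. Hadh, the short-chain hydroxyacyl-CoA dehydrogenase, stood at 2921 and 3132 CPM in the controls and 2751 and 2642 CPM in the fructose libraries. It had a log2 fold change of -0.17 ± 0.09 (adjusted p = 0.199), and was called without control 1 (-0.22, adjusted p = 0.0477).

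Hadha and Hadhb encode the α and β subunits of the trifunctional protein, and were not called. Hadha (ENSMUSG00000025745, chr5:30118304-30155162, minus strand) stood at 3682 and 4063 CPM in the controls and 3591 and 3445 CPM in the fructose libraries. Hadhb (ENSMUSG00000059447, chr5:30155248-30184593, plus strand) stood at 3319 and 3565 CPM in the controls and 3092 and 3153 CPM in the fructose libraries. The log2 fold change was -0.14 for each, with an SE of 0.10 for Hadha and 0.09 for Hadhb and adjusted p-values of 0.306 and 0.28. The CPM per kilobase of Hadhb over that of Hadha was 1.77, 1.72, 1.69 and 1.79 in control 1, control 2, fructose 1 and fructose 2, so the ratio overlapped between groups. Without control 1 the values were -0.21 for Hadha and -0.19 for Hadhb, and without control 2 they were -0.07 and -0.09. Hadhb was called with the GC trend removed (-0.36, adjusted p = 0.0297).

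The pair is transcribed head to head, and the stretch between the RefSeq starts is shown because it serves as the upstream region of both. It covers chr5:30154980-30155253 of GRCm38.p6, 274 bases on the plus strand with a GC content of 60.2%, from the start of Hadha to the start of Hadhb. Capitals mark the 228 bases, chr5:30155003-30155230, that the promoter windows of both genes hold, each window running from 250 bases before to 50 bases after the start.
Hadha and Hadhb shared upstream region: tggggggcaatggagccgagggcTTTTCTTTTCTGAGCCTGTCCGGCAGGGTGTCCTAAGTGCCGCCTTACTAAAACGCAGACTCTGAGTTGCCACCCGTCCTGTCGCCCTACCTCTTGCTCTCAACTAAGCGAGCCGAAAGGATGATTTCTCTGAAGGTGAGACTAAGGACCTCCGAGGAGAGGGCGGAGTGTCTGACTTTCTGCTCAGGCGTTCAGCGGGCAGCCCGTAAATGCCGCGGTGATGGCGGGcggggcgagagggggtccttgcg
In GENCODE M21 the gene Hadha reaches further into this stretch, to base 30155162. Promoter windows overlapping one on the opposite strand were found for 3212 of 27025 genes (11.9%) and for 4 of the 26 members with a window, namely Acsl1, Hadha, Hadhb and Etfdh.

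The electron transfer flavoprotein takes electrons from the dehydrogenases and hands them to its ubiquinone oxidoreductase Etfdh. Etfb, the β subunit (ENSMUSG00000004610, chr7:43444083-43457800), stood at 2318 and 2365 CPM in the controls and 1716 and 1659 CPM in the fructose libraries. This was the member with the smallest p, a fall by a log2 fold change of -0.47 ± 0.09 (adjusted p = 0.00319), and the call was kept without each library in turn. Once both trends were removed the value was -0.09 (adjusted p = 0.62), and the transcript of 893 bases was the shortest of the 32. Etfa, the α subunit (ENSMUSG00000032314, chr9:55454508-55512243), stood at 1128 and 1091 CPM in the controls and 1076 and 1113 CPM in the fructose libraries. The groups overlapped, with a log2 fold change of -0.02 ± 0.08 (adjusted p = 0.891), and the sign turned with scaling by library size only (0.04), with the length trend removed (0.18), without control 1 (0.00) and without fructose 1 (0.01). The CPM per kilobase of Etfb over that of Etfa was 3.20 and 3.38 in the controls and 2.49 and 2.32 in the fructose libraries, without overlap. These ratios still hold the length and GC content trends. With both trends removed the log2 fold change was -0.09 for Etfb and -0.03 for Etfa. Etfdh stood at 551.6 and 618.1 CPM in the controls and 547.6 and 556.2 CPM in the fructose libraries, with a log2 fold change of -0.08 ± 0.09 (adjusted p = 0.515) that was 0.00 without control 2 and -0.17 without control 1.

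The thioesterases hydrolyse acyl-CoA and so act against activation, and neither was called. Acot2, a mitochondrial enzyme for long chains, stood at 52.7 and 55.0 CPM in the controls and 45.1 and 45.7 CPM in the fructose libraries. The log2 fold change of -0.25 ± 0.09 had an adjusted p of 0.0525, and passed with DESeq2 size factors within edgeR (-0.26, adjusted p = 0.0464). It did not pass with DESeq2 (-0.26, adjusted p = 0.127), with scaling by library size only (-0.19, 0.133) or with both trends removed (-0.07, 0.664). Without control 1 the value was -0.28. Acot2 is 94.3% identical to Acot1 over 1330 aligned transcript bases, so its counts may hold reads of that paralog. Acot11, a thioesterase induced by cold in brown fat, stood at 53.7 and 77.4 CPM in the controls and 96.3 and 67.2 CPM in the fructose libraries. The groups overlapped, with a log2 fold change of 0.32 ± 0.17 (adjusted p = 0.189). The value rested on single libraries, at 0.61 without control 2 (adjusted p = 5.5e-07), 0.56 without fructose 2 (0.00392), 0.07 without control 1 (0.634) and 0.04 without fructose 1 (0.886).

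Peroxisomal members comprise 5 β-oxidation enzymes and 3 proteins that carry substrates in or products out, and a difference between these sets was not tested. None of the 5 enzymes was called by edgeR, against 15.5% higher and 10.7% lower among all tested genes, and none by DESeq2. None passed an unadjusted p under 0.05 with a fold change above 1.3, against 17.6% higher and 6.18% lower. Their median log2 fold change was -0.08. All 3 members of the other set, Crot, Abcd2 and Abcd3, were called higher, against 15.5% of all tested genes. With both trends removed edgeR called 0 of the 3 higher, against 3.46% of all tested genes. The summed CPM of those 3 was 126.3 and 121.5 in the controls and 177.7 and 155.2 in the fructose libraries, and that of the 5 enzymes was 623.4, 647.2, 609.5 and 565.6 in the order control 1, control 2, fructose 1, fructose 2.

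Abcd3 and Abcd2 are ABC transporters that bring acyl-CoA into peroxisomes. Abcd3 (ENSMUSG00000028127, chr3:121758774-121815302) stood at 105.5 and 106.3 CPM in the controls and 148.3 and 127.9 CPM in the fructose libraries. It rose by a log2 fold change of 0.38 ± 0.09 (adjusted p = 0.00978), with fructose 1 the highest. The log2 fold change was 0.28 without fructose 1 (adjusted p = 0.113) and 0.15 with both trends removed (0.382). Abcd2 (ENSMUSG00000055782, chr15:91145871-91191799) was the member of lowest level, at 176 and 80 counts in the controls and 292 and 275 in the fructose libraries, or 9.29, 4.44, 12.9 and 11.2 CPM. It rose by a log2 fold change of 0.81 ± 0.25 (adjusted p = 0.0362), and control 2 stood far below control 1. The log2 fold change was 0.38 without control 2 (adjusted p = 0.132), 1.44 without control 1 (5.0e-09) and 0.25 with both trends removed (0.593).

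Crot attaches medium-length acyl groups left by peroxisomal shortening to carnitine for transfer to mitochondria. Its level (ENSMUSG00000003623, chr5:8966033-8997324) was 219 and 194 counts in the controls and 371 and 393 counts in the fructose libraries, or 11.6, 10.8, 16.4 and 16.0 CPM. The replicates lay close together and the groups did not overlap, with a log2 fold change of 0.54 ± 0.13 (adjusted p = 0.0131). Without fructose 1 the call was lost at a similar fold change (0.53, adjusted p = 0.0582), and it was lost at a smaller one with the GC trend removed (0.24, 0.226) and with both trends removed (0.33, 0.157).

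Among the enzymes, Hsd17b4, the D-bifunctional protein, was the most abundant. It stood at 316.7 and 330.8 CPM in the controls and 318.7 and 293.6 CPM in the fructose libraries, an overlap, with a log2 fold change of -0.08 ± 0.08 (adjusted p = 0.511) that was -0.14 without fructose 1 and -0.02 without fructose 2. Ehhadh, the L-bifunctional protein, stood at 56.2 and 64.0 CPM in the controls and 46.3 and 55.3 CPM in the fructose libraries. Its log2 fold change was -0.24 ± 0.11 (adjusted p = 0.111), and it was called with the GC trend removed (-0.38, adjusted p = 0.0339). With both trends removed it was not called (-0.32, adjusted p = 0.0931), but it was when a replicate block was added (-0.32, adjusted p = 0.0317). The value was larger in size without control 1 (-0.34) and smaller without control 2 (-0.14) and without fructose 1 (-0.12). Acox3, an oxidase of branched chains, stood at 44.8, 49.5, 49.3 and 51.2 CPM in control 1, control 2, fructose 1 and fructose 2, with a log2 fold change of 0.09 ± 0.09 (adjusted p = 0.481) that was 0.02 without control 1, 0.17 without control 2, and 0.00 and of the other sign with the length trend removed.

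The thiolases Acaa1a and Acaa1b had fold changes of opposite sign, and neither passed the test. Acaa1a stood at 179.7 and 182.0 CPM in the controls and 164.1 and 144.8 CPM in the fructose libraries, with a log2 fold change of -0.23 ± 0.09 (adjusted p = 0.0719). It was called without control 1 (-0.24, adjusted p = 0.0468), the value was -0.14 without fructose 2 (adjusted p = 0.526), and its sign turned with both trends removed (0.07). Acaa1b stood at 26.0 and 20.9 CPM in the controls and 31.1 and 20.7 CPM in the fructose libraries, an overlap. Its log2 fold change was 0.14 ± 0.17 (adjusted p = 0.581), and was -0.01 without control 2 and -0.17 without fructose 1. With both trends removed it was 0.44 (adjusted p = 0.127), and with a replicate block added as well it was called higher by edgeR (0.43, adjusted p = 0.0126). Their transcripts are 95.7% identical over 1471 aligned bases, so reads may have been divided between them in a way the counts do not show. Acaa1a also shares 290 exon bases with Myd88 on the opposite strand, which had 568, 543, 606 and 598 counts in control 1, control 2, fructose 1 and fructose 2.

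**Figure D3:**
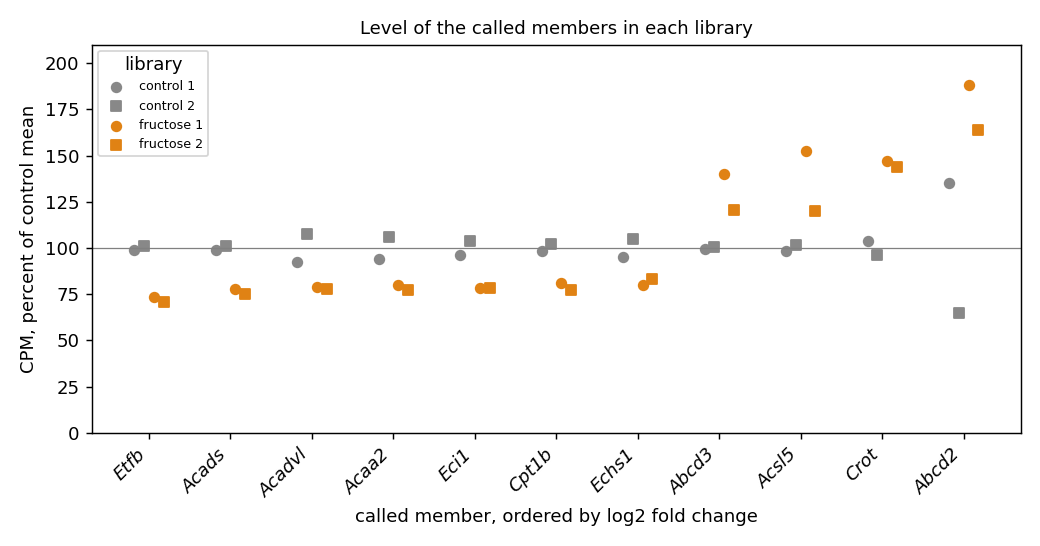
CPM of the 11 called members in each of the 4 libraries as a percentage of the control mean of the same gene, with circles for replicate 1 and squares for replicate 2. In all 7 genes called lower both fructose libraries lie below both controls, in all 4 called higher they lie above, and the 2 controls of Abcd2 stand far apart.

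Levels of different genes were compared as CPM per kilobase of the longest protein-coding transcript, averaged over the 4 libraries. Acaa2 was highest at 3545 CPM per kilobase, and its libraries did not overlap those of Etfb, next at 2256. Etfb and Acadvl (2040) overlapped. Then came Hadhb (1603), Hadh (1600), Acadl (1386), Eci1 (1126), Echs1 (1017) and Hadha (920.0), each overlapping the gene after it except Hadha. The 20 highest levels per kilobase were all of members assigned to the mitochondrial route, ending with Eci2 at 137.8. Hsd17b4 (117.3) and Acaa1a (95.2) led the peroxisomal members. At the low end were Cpt1a (8.66), Crot (4.57) and Abcd2 (1.71 CPM per kilobase), which did not overlap each other. The Spearman correlation across the 32 members between log2 fold change and mean CPM per kilobase was -0.609, as a description.

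Other genes of the same pathways were counted from fixed lists, some of which share genes. Of 37 tested genes listed under other mitochondrial fatty acid oxidation, 8 were called higher and 12 lower, beside 15.5% and 10.7% of all tested genes. Their median log2 fold change was -0.14. The list also holds genes of neighbouring acyl-CoA pathways, among them Mut, Mcee, Hibch and Echdc1. Without fructose 2 the counts were 3 higher and 4 lower. Ech1, which isomerises dienoyl-CoA, fell (-0.52, adjusted p = 0.00238), as did Hsd17b10, a short-chain hydroxyacyl-CoA dehydrogenase of branched substrates (-0.53, adjusted p = 0.00121). The methylmalonyl-CoA pathway gene Mut rose (0.52, adjusted p = 0.00238), while Mcee of the same pathway fell (-0.41, adjusted p = 0.0057). Hibch of valine breakdown (0.62, adjusted p = 0.00131) and Echdc1, which clears ethylmalonyl-CoA (0.77, adjusted p = 8.4e-04), rose. Removal of both trends left 2 genes of this list called higher and 2 lower. Of the 6 genes named here Hibch was still called (0.38, adjusted p = 0.0219), while Mut (0.11, adjusted p = 0.487), Mcee (-0.15, 0.326), Ech1 (-0.23, 0.181), Hsd17b10 (-0.25, 0.0756) and Echdc1 (0.30, 0.0696) were not.

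Of 31 tested genes of other peroxisomal lipid metabolism, 6 were called higher and 1 lower, beside 15.5% and 10.7% of all tested genes, with a median log2 fold change of 0.00. Those called lower were 5 without control 1, and those called higher were 4 without fructose 1 and 4 without fructose 2. Nudt12, a peroxisomal nucleotide hydrolase, rose (1.23, adjusted p = 4.0e-04) and was also called with both trends removed (0.72, adjusted p = 0.0127). Acbd5, an acyl-CoA binding protein of the peroxisomal membrane (1.08, adjusted p = 8.6e-04), and the ether lipid genes Far1 (1.58, adjusted p = 0.00334) and Agps (0.67, adjusted p = 0.00912) rose. Tysnd1, the peroxisomal processing protease, fell (-0.34, adjusted p = 0.0222). Removal of both trends left 2 genes of the list called higher and 0 lower by edgeR, and Acbd5, Far1, Agps and Tysnd1 were no longer called. Acnat1, Baat and Hao2 had 0 counts in all 4 libraries.

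Of 23 tested peroxisome biogenesis genes, 2 were called higher and 6 lower, beside 15.5% and 10.7% of all tested genes, with a median of -0.08. Without fructose 2 the counts were 1 higher and 1 lower, and without fructose 1 they were 1 and 5. The fission GTPase Dnm1l, shared with mitochondria, rose (1.25, adjusted p = 2.2e-04), and the import ATPase subunit Pex6 (-0.47, adjusted p = 0.00368) and the fission adaptor Fis1 (-0.39, adjusted p = 0.0068) fell. With both trends removed, 1 biogenesis gene, Dnm1l, was called higher and 2 lower, and neither Pex6 nor Fis1 was called.

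Of 24 tested regulators, 11 were called higher and 5 lower, beside 15.5% and 10.7% of all tested genes, with a median log2 fold change of 0.14. Those called lower numbered 2 without fructose 1 and 2 without fructose 2. Ppara, the nuclear receptor that activates fatty acid oxidation genes, stood at 82.9 and 74.8 CPM in the controls and 125.9 and 140.8 CPM in the fructose libraries. It rose by a log2 fold change of 0.76 ± 0.09 (adjusted p = 3.5e-04), and was also called with both trends removed (0.78, adjusted p = 6.9e-04). The coactivator Ppargc1a stood at 6.91 and 7.49 CPM in the controls and 14.2 and 17.9 CPM in the fructose libraries. It rose by 1.16 ± 0.16 (adjusted p = 8.1e-04), and by 0.53 with an adjusted p of 0.0645 with both trends removed. The orphan receptor Esrrg (1.43, adjusted p = 0.00126), the kinase subunit Prkaa2 (1.09, adjusted p = 0.00104) and the deacetylase Sirt1 (1.25, adjusted p = 0.00435) rose. The mitochondrial deacetylase Sirt3 (-0.44, adjusted p = 0.00241) and the receptors Rxrg (-0.34, adjusted p = 0.0105), Esrra (-0.27, adjusted p = 0.0313) and Ppard (-0.29, adjusted p = 0.0423) fell. With both trends removed, 4 regulators were called higher and 0 lower by edgeR, with Ppara, Esrrg and Sirt1 among the 4.

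Downstream of β-oxidation, 7 of 25 citric acid cycle genes were called lower and 1 higher, with a median of -0.16, and 53 of 79 nuclear-encoded respiratory chain genes were called lower and 0 higher by edgeR, with a median of -0.32, beside 10.7% lower and 15.5% higher among all tested genes. Without fructose 1 and without fructose 2 the respiratory chain genes called lower numbered 34 and 10, and the citric acid cycle genes 2 and 2, with 13 of the latter without control 1. None of the 79 was higher at an unadjusted p under 0.05 with a fold change above 1.3, and 21 were lower by that rule. Examples were the succinate dehydrogenase subunit Sdhb (-0.42, adjusted p = 0.00609) and the complex I subunit Ndufb11 (-0.52, adjusted p = 0.00147). With both trends removed, 1 citric acid cycle gene and 7 respiratory chain genes were called lower and 2 respiratory chain genes higher. The median transcript length of the respiratory chain list was 875 bases.

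Nuclear receptors that act on fatty acid oxidation genes recognise the site AGGTCA, and the RefSeq promoter windows were searched for these letters on both strands. Of the 32 members 26 had a window. The site was found in 4 of the 26 (15.4%), against 4900 of 27025 genes (18.1%). The direct repeat AGGTCANAGGTCA was found in 0 of the 26 members and in 13 of the 27025 genes (0.0481%). The 4 matches are shown because they include 2 of the called members, Acadvl and Echs1. Each is printed 5′ to 3′ on the strand that holds the letters, with up to 12 bases on either side and the site in capitals.
Cpt1a promoter site: gctgcggggaggAGGTCAgtaaggaaactg
Acadvl promoter site: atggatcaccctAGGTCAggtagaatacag
Acadm promoter site: accggagcccgaAGGTCAc
Echs1 promoter site: accagcccgctcAGGTCAcgggtccacccc
The match lay on the strand of the gene in Acadvl, from base -87 relative to the start, at chr11:70015498-70015527, and in Echs1, from base -83, at chr7:140116487-140116516. It lay on the opposite strand in Cpt1a, from base -94, at chr19:3323195-3323224, and in Acadm, from base -249, at chr3:153944875-153944893. In GENCODE M21 the gene Cpt1a begins earlier, at base 3322334, so its site lies within the gene in that annotation. A match is a description of letters and not of binding. Members without a window were Hsd17b4, Cpt1b, Acaa2, Crat, Decr1 and Abcd2.

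Markers of other cell types moved with the groups. Of 23 tested skeletal muscle markers 22 were called higher and 0 lower by edgeR, beside 15.5% and 10.7% of all tested genes. At an unadjusted p under 0.05 with a fold change above 1.3, 22 were higher and 0 lower, beside 17.6% and 6.18%. Their summed level was 402.7 and 510.9 CPM in the controls and 1104 and 866.7 CPM in the fructose libraries, and Acta1 was the most abundant (94.8, 133.4, 305.1 and 201.2 CPM). Myod1 had 6, 6, 8 and 10 counts and was not tested, while Myog had 8, 12, 41 and 69 counts. Without the trends 21 muscle markers were called higher, beside 3.46% of all tested genes. Muscle also expresses many fatty acid oxidation genes, Cpt1b among them, and the part of muscle RNA in the members' levels was not tested.

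Of 8 erythroid markers 5 were called lower, beside 10.7% of all tested genes. Their summed levels were 19200 and 15290 CPM in the controls and 11770 and 12140 CPM in the fructose libraries, led by Hbb-bs. Their median log2 fold change was -0.51, and -0.16 with both trends removed. In that fit edgeR called 0 of them, beside 3.46% higher and 3.42% lower among all tested genes. Of 10 pan-adipocyte markers 6 were called lower and 0 higher by edgeR, beside 10.7% and 15.5% of all tested genes. At an unadjusted p under 0.05 with a fold change above 1.3, 1 was lower and 0 higher, beside 6.18% and 17.6%. With both trends removed edgeR called 0 of these markers lower, beside 3.42%. Their sums were 20160, 18670, 16490 and 16190 CPM in control 1, control 2, fructose 1 and fructose 2, led by Fabp4. Of the 12 brown adipocyte markers 3 were called higher and 2 lower, beside 15.5% and 10.7% of all tested genes. The sums of the 12 were 14610, 17280, 15700 and 14150 CPM in the same order, an overlap, led by Ucp1. With both trends removed edgeR called 1 higher and 0 lower, beside 3.46% and 3.42%. The transcripts encoded in mitochondrial DNA took 5.89% and 6.49% of counts in the controls and 10.8% and 11.2% in the fructose libraries. Of these 13 genes 12 were called higher, beside 15.5% of all tested genes. The median log2 fold change of the 13 was 0.92, with 0.11 after removal of the GC trend and 0.43 after removal of both. In the latter fit 5 were called higher, beside 3.46% of all tested genes. The part of these shifts in the results for the members was not tested.

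Of 8 endothelial markers 2 were called lower, beside 10.7% of all tested genes. Their sums were 1497, 1459, 1309 and 1390 CPM in control 1, control 2, fructose 1 and fructose 2, led by Cdh5. Of 8 macrophage markers 1 was called higher (Mrc1) and 2 lower (C1qa and C1qb), beside 15.5% and 10.7% of all tested genes. The macrophage sums were 155.4, 123.5, 126.5 and 132.7 CPM, led by Csf1r. Of 9 fibroblast markers 1 was called higher (Dpp4), beside 15.5%, with sums of 5066, 4355, 4927 and 4993 CPM, led by Col3a1. Of 16 liver markers 5 were tested and 1 was called lower (Cyp2e1), beside 10.7% of all tested genes. Of the 16, 7 (Afp, Fga, Fgb, Fgg, Serpina1a, Tat and Ttr) had 0 counts in all 4 libraries, and the rest had counts in at least 1 library. The liver list summed to 2006, 1543, 1584 and 1754 CPM, led by Pck1, which brown fat also expresses. With both trends removed, 1 endothelial and 1 liver marker were called lower, beside 3.42% of all tested genes. In that fit edgeR called 0 macrophage and 0 fibroblast markers, beside 3.46% higher and 3.42% lower.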

How the data were processed

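Bulk RNA sequencing of fetal BAT gave 4 libraries, grouped by titles and treatment labels into control and fructose with 2 each. The authors filtered reads with fastp, mapped them to mm10 with Bowtie2 2.0.0.5 and TopHat2 2.0.0, assembled transcripts with StringTie 2.2.0, merged them with Cuffmerge and deposited raw counts per gene. The counting tool and strand setting are not given in the sources used here. The 4 deposited single-library files held the same counts as the joint table.

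Counts were tested with edgeR 4.0.16 in R 4.3.3 (quasi-likelihood test, two-sided, filterByExpr, TMM, Benjamini-Hochberg over 12888 genes), and with DESeq2 1.42.0 as an alternative. Scripts were tested on simulated data. CPM are counts scaled to library size after TMM. Standard errors were derived as the absolute log2 fold change over the square root of the edgeR quasi-likelihood F. Transcript length and GC content come from the longest protein-coding transcript of GENCODE M21. Trends with length and GC content were removed with lowess offsets (span 0.3). The coefficient of variation between replicates in the fit was 8.52%. Of 22298 identifiers 43 had no GENCODE match. Promoter sequences are RefSeq windows on GRCm38.p6, and transcripts were aligned with Biopython 1.88.

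The members and lists were chosen with earlier results of these data known. Per-library values are given for called members, the CPT1 genes and the most abundant member of each role. They are also given for members whose call or direction changed under an alternative. From the other pathway lists, genes were picked among the up to 6 called per direction with the smallest p. For lists of cell type markers the most abundant marker is named. Most genes of these other lists are given without per-library values. Genes named beyond these rules were chosen after their values were seen. Alternatives covered the test, scaling, filter, replicate block, length and GC content trends, library totals counted without haemoglobin and mitochondrially encoded genes, and leaving out each library.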

Additional observations from a re-analysis of the deposited data

How the results depend on the processing

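Tests ran under 17 alternatives. All genes called higher (2001) became 1280 with DESeq2, 1112 without the length trend, 943 without the GC trend, 446 without both, and 1160, 1082 and 648 without these with replicate block, and ranged from 1207 to 2225 with each library left out. Genes called lower (1379) became 859 with scaling by library size, 441 without both trends, 873 (length) and 573 (both) with replicate block, and ranged from 485 to 1700. Members called higher (4) became 2 without length, 0 without GC, 0 without both, and 2 (GC) and 1 (both) with replicate block, range 1 to 5. Members called lower (7) became 1 without length, 1 without both, and 0, 2 and 2 (length, GC, both) with replicate block, range 1 to 14. Other pathway lists (7, ketone body enzymes among them, shared genes counted once) higher (29) became 19, 14 and 11 (length, GC, both) and 19, 15 and 14 with replicate block, range 19 to 28. Lower (83) became 23 (length) and 11 (both), and 18, 50 and 16 with replicate block, range 18 to 97. The mitochondrial median (-0.1627) was -0.1022 by library size, where the median of all tested genes was 0.0634 (0.0025 with TMM). The mitochondrial one was -0.1041 (length), -0.0921 (both), and -0.104 and -0.0916 with replicate block, range -0.2153 to -0.1181. The peroxisomal median (0.1171) ranged from 0.0033 to 0.2386. With each library left out, mitochondrial sums ranged from 82.67% to 89.5% of control and peroxisomal ones from 94.94% to 103.7%, and by library size they were 89.68% and 103.5%. Signs turned, none of them in called members, for Crat (GC 0.01, with replicate block 0.0102), Acadl (length 0.0069, 0.0061), Acadm (length 0.0401, 0.0411), Etfa (library size 0.0421, length 0.1782, 0.1775, without control 1 0.0016, without fructose 1 0.0089, each library left out -0.0425 to 0.0089), Etfdh (without control 2 0.001, range -0.1667 to 0.001), Acox3 (length -0.0027, -0.0018), Acaa1a (both 0.0732, 0.0722) and Acaa1b (without control 2 -0.0073, without fructose 1 -0.1749, range -0.1749 to 0.41). Replicate block alone kept all 11 calls, with 2117 and 1441 calls over all genes. Replicate numbers share only a number, and deviations of same-numbered libraries correlated at -0.0266. The cause was not tested.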
